A study of Mus musculus with 12 samples.

Results

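The Pramel, Oog and Prame genes form a multicopy family of the mouse, and its members were taken here as every probe set whose gene symbol begins with Prame, or with Oog and a digit. The rule found 35 of the 25206 probe sets on the array, 1 per gene. They were measured in embryonic stem cells (ESC) and in iPSC, the induced pluripotent stem cells obtained by reprogramming body cells. Both were female, of C57BL/6 background, with no engineered allele named in the labels, and were grown undifferentiated without feeders in 2iLIF medium. Each was stained with tetramethylrhodamine methyl ester (TMRM), a dye that accumulates in mitochondria according to their membrane potential, and cells of low and of high dye signal were sorted apart. ESC low, ESC high, iPSC low and iPSC high thus make 4 groups, which held 3 Affymetrix arrays each, numbered 2, 3 and 4. The labels name neither the number of lines or clones nor separate cultures for the arrays of a group, and the spread behind each p-value may therefore be technical.

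PRAME family proteins are built of leucine-rich repeats, and several act as substrate receptors of cullin-RING ubiquitin ligases, which they join through elongins. The human founder of the family was found as a tumour antigen that is otherwise made mainly in the testis. In the mouse the family has multiplied into arrays of similar copies, many of them active in germ cells, oocytes or the early embryo. Pramel7 is known for holding back DNA methylation in naive pluripotent cells by targeting UHRF1 for degradation, and Pramel6 and Pramel7 lie downstream of LIF and STAT3. Because copies resemble each other, a probe set of one can take up RNA of another, and every value below is uncertain as to the copy.

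In the reference gene table (RefSeq, assembly GRCm38.p6) 53 genes carry such a symbol, and 35 of them had a probe set here, all matched by gene number. The members lay on chromosome 4 (25 of the 28 family genes listed there), chromosome 5 (4 of 18), chromosome 2 (2 of 2), chromosome 12 (1 of 2) and chromosome X (3 of 3). The copies without a probe set, Oog1 and Oog2 among them, were not analysed here. RNA of the 14 unrepresented copies of chromosome 5 could only be seen through the probe sets of their neighbours, and this sharing was not tested.

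The deposited values are log2 expression after RMA, and no detection calls come with them, so a dim transcript and background cannot be told apart. Most members were dim. The mean was below 2.5 in all 4 groups for 28 of 35 members (80%), against 29.9% of all probe sets, and 24 members stayed below 2.5 on each of the 12 arrays. Pramel1, Pramel12, Pramel13, Pramel19 and Pramel24 had a mean of 2.5 or above in all 4 groups. Pramel4 did so in ESC low and Pramel20 in iPSC high. A probe set's level depends on its probes, so these levels are not ranked between genes.

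Array medians lay between 3.51 and 3.61, Pearson correlations across probe sets were 0.991 to 0.994 for arrays of 1 group and 0.986 to 0.994 for arrays of different groups, and 0 pairs of arrays held identical values. Pluripotency markers had a median level of 8.96 to 9.14 per group over 10 genes. Group means lay between 10.49 and 10.62 for Nanog, 5.93 and 6.09 for Pou5f1 and 3.87 and 4.01 for Dppa5a. Markers of fibroblasts had a median of 2.81 to 3.08, of primitive endoderm 3.49 to 3.55 and of trophoblast 3.60 to 3.82. Single genes departed from these medians, such as Lama1 of primitive endoderm (6.84 to 7.12) and Tfap2c of trophoblast (6.20 to 6.58). By limma, 0 genes of these 4 lists passed in any comparison, beside 0% to 2.87% of all probe sets. At an unadjusted p under 0.05 (limma) there were 5 over both cell types, beside 15.6% of all probe sets. They were 0 of 10 pluripotency, 2 of 10 fibroblast, 2 of 8 primitive endoderm and 1 of 8 trophoblast markers.

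Over both cell types, Pramel19 and Pramel18 were lower in cells with high membrane potential, and no member was higher. They made 2 of 35 members called lower by limma at an adjusted p under 0.05, beside a background of 0.905% of all probe sets called lower, 1.6% called higher and 2.5% called in either direction. At an unadjusted p under 0.05 there were 6 members (17.1%), beside 15.6% of all probe sets. Centring each array on its median changed the array-wide calls from 403 higher and 228 lower to 361 and 368 (1.46% lower) and left the members' count at 2. The genes neighbour each other on chromosome 4 in the reference table, with no other gene listed between them.

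The Pramel19 probe set was at 5.91, 3.19 and 5.66 on ESC low replicates 2, 3 and 4, and at 2.92, 1.76 and 3.08 on ESC high. In iPSC it was at 4.54, 4.75 and 5.65 in the low fraction and at 2.65, 2.38 and 2.63 in the high fraction. In each cell type every low array lay above every high array, and ESC low replicate 3 was well below the other low arrays. Group means were 4.92 ± 1.5 (SD, n = 3) in ESC low, 2.59 ± 0.72 in ESC high, 4.98 ± 0.59 in iPSC low and 2.55 ± 0.15 in iPSC high. The difference over both cell types was -2.38 ± 0.41 (SE), with 95% limits of -3.28 and -1.48 (adjusted p = 0.00953, limma). No fold is given, since the high arrays lie near or under 2.5 and are not shown to be above background. In bulk samples, fewer cells with the transcript and less transcript per cell cannot be told apart.

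Within a single cell type the same drop of Pramel19 was of like size. It was -2.33 ± 0.58 in ESC (adjusted p = 0.157, limma) and -2.43 ± 0.58 in iPSC (adjusted p = 0.0877, limma). With the low and high arrays of equal number paired in a replicate block, adjusted p became 0.019 in ESC and 0.017 in iPSC (limma). That pairing was inferred from these same data and is not stated in the labels. In the unpaired fit without ESC low replicate 3, adjusted p was 0.0123 in ESC, with a difference of -3.19, and 0.016 in iPSC (limma). The other 11 fits that left out 1 array did not pass, at 0.161 to 0.484 in ESC and 0.0755 to 0.293 in iPSC (limma). The effect in iPSC minus that in ESC was -0.10 ± 0.83, with 95% limits of -1.90 and 1.69, so a sizeable difference between cell types could not be seen with these arrays.

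The sequence before the Pramel19 start is shown because it is the member with the largest difference. The RefSeq promoter table holds 30 of the 35 members, and the line gives the 250 bases upstream of the start (chr4:101940157-101940406, + strand, GRCm38.p6). Capitals mark the CCAAT box, read on the opposite strand, whose first base lies at -160.
Pramel19: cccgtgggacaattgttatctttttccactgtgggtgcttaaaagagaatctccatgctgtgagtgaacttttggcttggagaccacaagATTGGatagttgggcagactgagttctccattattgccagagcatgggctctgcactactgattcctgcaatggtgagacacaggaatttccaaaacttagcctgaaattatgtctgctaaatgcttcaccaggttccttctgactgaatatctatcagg
This stretch held 1 CpG, the median over the members' upstream stretches.

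The Pramel18 probe set was also higher on low than on high arrays. It was at 2.33, 1.59 and 2.67 on ESC low replicates 2, 3 and 4, and at 1.37, 0.98 and 1.08 on ESC high. The iPSC values were 1.86, 1.94 and 3.0 in the low fraction and 0.91, 1.04 and 1.22 in the high fraction. Low and high arrays did not overlap in either cell type, but only ESC low replicate 4 and iPSC low replicate 4 passed 2.5. The difference over both cell types was -1.13 ± 0.21, with 95% limits of -1.59 and -0.67 (adjusted p = 0.0138, limma). As the 6 high arrays were all under 2.5, no fold is given. It was -1.06 ± 0.30 in ESC (adjusted p = 0.234, limma; 0.0905 with the replicate block) and -1.21 ± 0.30 in iPSC (adjusted p = 0.0913, limma; 0.0484 with the replicate block). As Pramel18 and Pramel19 may share signal, they are not taken as separate observations.

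**Figure D1:**
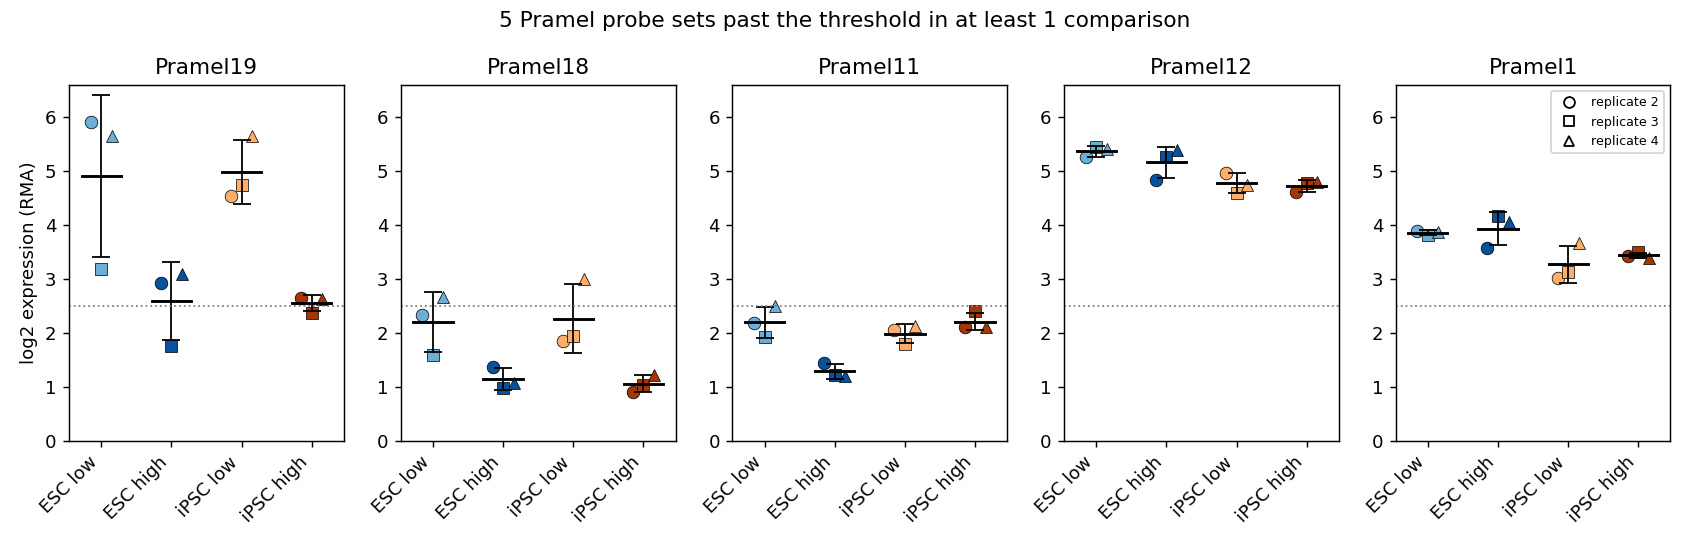
Log2 expression (vertical axis) of Pramel19, Pramel18, Pramel11, Pramel12 and Pramel1 on each of 12 arrays, by group (horizontal axis); symbols give the replicate number, wide bars the group mean, error bars the SD of 3 arrays and the dotted line a level of 2.5. Pramel19 and Pramel18 are higher on low than on high arrays in both cell types, and Pramel12 and Pramel1 have higher means in ESC than in iPSC. Pramel11 is under 2.5 on every array and lowest in ESC high, and its difference between cell types did not pass.

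Genes of the 2-cell-like state, a rare and passing condition in which pluripotent cells resemble the embryo after its first division, are given beside Pramel19. The list had 22 measured genes, of which 2 fell and 0 rose with the high fraction in both cell types together. Of all probe sets, 0.905% were called lower and 1.6% higher. Differences were below 0 for 18 of the 22 genes, against 49.1% of all probe sets. The median was -0.24 against 0.00 for all probe sets. Many of the listed genes were dim: median levels per group were 2.27 to 2.70, and 5 of the 22 were under 2.5 on every array. Zscan4e, a zinc finger gene that marks the state, fell by 3.37 ± 0.59 (adjusted p = 0.00958, limma), and Eif4a3l1 fell by 0.97 ± 0.19 (adjusted p = 0.019, limma). Eif4a3l1 passed 2.5 only on iPSC low replicate 4, at 3.25, and its other values are not shown to be above background. Zscan4d at -1.09 ± 0.37 and Zscan4c at -1.11 ± 0.50 did not pass (adjusted p = 0.165 and 0.312, limma). For Eif4a3l1 the difference was -0.42 ± 0.27 in ESC (adjusted p = 0.737, limma) and -1.53 ± 0.27 in iPSC (adjusted p = 0.0291, limma), and the test between cell types did not pass (adjusted p = 1, limma). Tmem92 was at -1.07 ± 0.27 and Tdpoz3 at -0.93 ± 0.26, neither past the threshold (adjusted p = 0.0641 and 0.0921, limma). The list's mean level on single arrays ran from 2.75 to 3.41 in ESC low, 2.5 to 2.85 in ESC high, 3.04 to 3.35 in iPSC low and 2.62 to 2.66 in iPSC high. Its part in the difference of Pramel19 was not tested.

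Array by array, Zscan4e was at 6.63, 3.40 and 6.65 on ESC low replicates 2, 3 and 4 and at 3.22, 0.68 and 2.58 on ESC high. In iPSC it was at 4.56, 5.54 and 6.29 in the low and 1.41, 2.44 and 2.52 in the high fraction. For Zscan4e as for Pramel19, ESC low replicate 3 was the lowest of the 6 low arrays and ESC high replicate 3 the lowest of the 12 arrays. As both genes were named for their fall with the high fraction, that they share it is no separate finding.

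**Figure D2:**
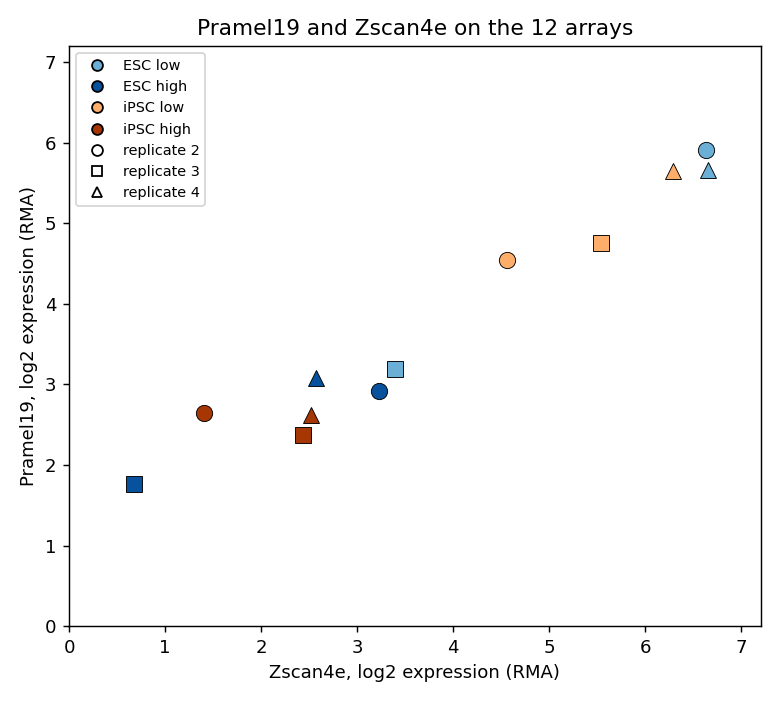
Log2 expression of Pramel19 (vertical axis) against that of Zscan4e (horizontal axis) on 12 arrays, coloured by group, with symbols for the replicate number. The arrays with high Zscan4e have high Pramel19: 5 low-fraction arrays are at 4.54 or above for Pramel19, while ESC low replicate 3 (3.40 and 3.19) lies beside the high-fraction arrays. Both genes were picked for their difference between the fractions, so likeness between the fractions follows from that choice.

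Within ESC, Pramel11 was lower in the high fraction, 1 of 35 members called lower beside a background of 0.0516% of all probe sets, and 0 were called higher beside 0.305% (either direction, 0.357%). At an unadjusted p under 0.05 there were 6 members, 3 lower and 3 higher, beside 8.29% of all probe sets. Its ESC low values on replicates 2, 3 and 4 were 2.18, 1.92 and 2.49 and its ESC high values 1.45, 1.21 and 1.20. In iPSC it was at 2.05, 1.79 and 2.12 in the low and 2.12, 2.40 and 2.11 in the high fraction, where the arrays overlapped. The ESC high arrays were thus the 3 lowest of 12, and no array reached 2.5. The difference was -0.91 ± 0.15 in ESC (adjusted p = 0.0241, limma) and 0.22 ± 0.15 in iPSC (adjusted p = 0.587, limma).

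The test of the difference between cell types did not pass for Pramel11 (1.14 ± 0.21, 95% limits 0.68 and 1.6; unadjusted p = 0.000151, adjusted p = 0.951, limma). That test called 0 of 25206 probe sets, or 0% of the array, and 0 members, though 1 member, Pramel11, and 4.36% of all probe sets had an unadjusted p under 0.05. The ESC call itself did not hold when 1 of 5 ESC arrays was left out. Adjusted p was 0.103 on dropping replicate 2 of the low fraction and 0.0906 on dropping its replicate 4. On dropping replicates 2, 3 and 4 of the high fraction it was 0.0538, 0.107 and 0.0727 (limma). In a fit to the 6 ESC arrays alone it was 0.0965 (limma).

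Pramel11 and Pramel24 are shown together because their upstream stretches, of 250 bases each, share 217 identical bases, and Pramel11 alone of the pair was called. The deviations of their probe sets from the group means correlated at 0.565 over the 12 arrays, the third highest of the 10 pairs with the most alike upstream stretches. Capitals mark bases without an identical partner in the alignment of the pair. Pramel11 is at chr4:143900381-143900630 (- strand) and Pramel24 at chr4:143719201-143719450 (+ strand), GRCm38.p6.
Pramel11: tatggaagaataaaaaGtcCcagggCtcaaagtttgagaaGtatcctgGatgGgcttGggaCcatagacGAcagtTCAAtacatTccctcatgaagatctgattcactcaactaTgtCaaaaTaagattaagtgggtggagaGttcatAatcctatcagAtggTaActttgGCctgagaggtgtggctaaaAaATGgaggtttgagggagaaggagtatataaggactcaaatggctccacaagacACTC
Pramel24: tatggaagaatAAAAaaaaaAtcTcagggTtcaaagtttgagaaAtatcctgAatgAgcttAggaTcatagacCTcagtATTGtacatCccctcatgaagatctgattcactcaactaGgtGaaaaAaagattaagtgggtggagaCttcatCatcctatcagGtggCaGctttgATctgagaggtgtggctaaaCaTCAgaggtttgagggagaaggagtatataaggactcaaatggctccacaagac
Pramel24 was at 3.07, 2.57 and 3.06 on ESC low replicates 2, 3 and 4 and at 2.87, 2.92 and 2.90 on ESC high. Its difference in ESC was 0.00 ± 0.15, with 95% limits of -0.33 and 0.33. Whether this differs from the -0.91 of Pramel11, whose values were all under 2.5, was not tested. In iPSC the difference of Pramel24 was -0.15 ± 0.15 (adjusted p = 0.753, limma).

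In iPSC, 0 of 35 members were called in either direction by limma, beside 0.547% of all probe sets (0.349% higher, 0.198% lower). At an unadjusted p under 0.05 there were 2, Pramel19 and Pramel18, both lower, beside 12.7% of all probe sets.

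Between cell types, Pramel12 and Pramel1 were lower in iPSC than in ESC, averaged over the fractions, and 0 members were higher. These 2 of 35 stand beside 1.96% of all probe sets called lower in iPSC and 0.916% called higher (either direction, 2.87%). At an unadjusted p under 0.05 there were 4 members, 2 in each direction, beside 14.7% of all probe sets. In the reference table the genes follow each other on chromosome 4.

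The Pramel12 probe set was at 5.26, 5.44 and 5.4 on ESC low replicates 2, 3 and 4, and at 4.84, 5.27 and 5.39 on ESC high. In iPSC it was at 4.97, 4.60 and 4.74 in the low and 4.61, 4.79 and 4.80 in the high fraction. iPSC low replicate 2 exceeded ESC high replicate 2, and the other iPSC arrays lay below all ESC arrays. The difference was -0.51 ± 0.10, with 95% limits of -0.73 and -0.30 (adjusted p = 0.0176, limma).

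Pramel1, which is known from the developing sperm of the testis, was at 3.89, 3.81 and 3.87 on ESC low and 3.58, 4.18 and 4.05 on ESC high, replicates 2, 3 and 4. Its iPSC values were 3.03, 3.12 and 3.67 in the low and 3.42, 3.50 and 3.40 in the high fraction, replicates 2 to 4. The cell types overlapped in iPSC low replicate 4 and ESC high replicate 2. The difference was -0.54 ± 0.12, with 95% limits of -0.80 and -0.28 (adjusted p = 0.0322, limma). With the pairs as a replicate block, adjusted p was 0.0689, and the call was also lost on leaving out any 1 of 10 arrays (0.0552 to 0.0813), that is, each array other than ESC high replicate 2 and iPSC low replicate 4. The fraction did not pass for either gene: the high minus low difference over both cell types was 0.12 ± 0.12 for Pramel1 and -0.12 ± 0.10 for Pramel12 (adjusted p = 0.69 and 0.621, limma).

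The upstream stretch of Pramel1 is shown because its composition stands apart from that of the other members. It held 18 CpG and 59.6% G and C, where the medians were 1 CpG and 43% over the 30 members in the table and 6 CpG and 52.4% over all 32851 promoters. It lies at chr4:143394191-143394440 (+ strand, GRCm38.p6), and capitals mark a CCAAT box with its first base at -99.
Pramel1: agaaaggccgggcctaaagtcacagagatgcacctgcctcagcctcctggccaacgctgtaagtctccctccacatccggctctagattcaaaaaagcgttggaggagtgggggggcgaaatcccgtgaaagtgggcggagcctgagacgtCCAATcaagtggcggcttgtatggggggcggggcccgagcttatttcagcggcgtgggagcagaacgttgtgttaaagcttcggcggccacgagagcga
For Pramel12 no upstream sequence is printed.

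The members known from embryonic stem cells and the early embryo, Pramel4, Pramel5, Pramel6 and Pramel7, did not pass in any of the 5 comparisons. Pramel7 was at 1.72, 2.23 and 2.27 on ESC low replicates 2, 3 and 4, at 2.15, 1.57 and 1.82 on ESC high, at 1.99, 2.15 and 2.14 on iPSC low and at 2.15, 2.74 and 1.93 on iPSC high. The groups overlapped, and 1 array, iPSC high replicate 3, was above 2.5. Over both cell types its difference was -0.02 ± 0.15, with 95% limits of -0.34 and 0.30.

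Pramel6 stayed between 1.74 and 2.23 on the 12 arrays, with a difference of 0.15 ± 0.08 and limits of -0.02 and 0.33 (adjusted p = 0.379, limma). Pramel4 was at 2.91, 2.06 and 2.59 on ESC low replicates 2, 3 and 4, at 2.13, 2.35 and 2.38 on ESC high, at 2.31, 2.27 and 2.65 on iPSC low and at 2.25, 2.05 and 1.56 on iPSC high. Its low and high arrays overlapped in ESC and did not in iPSC. The difference over both was -0.35 ± 0.15 (adjusted p = 0.288, limma). Pramel5, whose upstream stretch shares 220 of 250 bases with that of Pramel4, ran from 1.56 to 2.17 and had a difference of 0.25 ± 0.10 (adjusted p = 0.258, limma). The estimates of these 2 genes had opposite signs, but neither passed, and whether they differ from each other was not tested.

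Members known from germ cells gave no call with membrane potential either. Oog3 and Oog4, named for their oocyte expression, ran from 1.19 to 1.70 and from 0.87 to 1.41, with differences of 0.14 ± 0.08 and 0.06 ± 0.10. Pramel13, needed for the upkeep of spermatogonial stem cells, was well above 2.5 on each array. It was at 3.92, 5.14 and 5.28 on ESC low replicates 2, 3 and 4, at 4.32, 4.69 and 5.32 on ESC high, at 4.89, 5.04 and 5.58 on iPSC low and at 4.63, 4.44 and 5.19 on iPSC high. Replicate 2 was the lowest array of both ESC groups, and the groups overlapped. Its difference was -0.21 ± 0.25, with limits of -0.75 and 0.33 (adjusted p = 0.747, limma).

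The X-linked members were dim. Prame, the founder of the family, ran from 1.19 to 1.73 and differed by 0.03 ± 0.09 with the fraction, and Pramel3 ran from 1.14 to 1.6 and differed by 0.04 ± 0.08. The member named Pramel ran from 1.22 to 1.78 and differed by -0.05 ± 0.10. Pramel14, on chromosome 4, was between 0.92 and 1.42 and differed by -0.11 ± 0.07.

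Oocyte and male germ cell markers were read beside these members. Of 14 oocyte markers 3 rose over both cell types, beside 1.6% of all probe sets called higher. They were the growth factor Gdf9 (0.46 ± 0.10), the oocyte lattice protein Padi6 (0.47 ± 0.10) and the nuclear chaperone Npm2 (0.45 ± 0.11). Their adjusted p was 0.0263, 0.0266 and 0.045 (limma). Group means were 2.89 to 3.41 for Gdf9, 2.33 to 2.90 for Padi6 and 4.15 to 4.73 for Npm2, so Padi6 lay around 2.5 and Gdf9 not far above it. The list's median was 0.08, with 6 genes below 0, and 4 of 14 were under 2.5 on every array. Its mean level ran from 2.87 to 3.05 in ESC low, 3.02 to 3.18 in ESC high, 2.88 to 3.06 in iPSC low and 2.99 to 3.11 in iPSC high. Of 12 male germ cell markers 0 changed over both cell types by limma (median -0.02), beside 2.5% of all probe sets called in either direction. At an unadjusted p under 0.05 (limma) there were 3, beside 15.6% of all probe sets. The part of such cells in the members' values was not tested.

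Over all 35 members, 20 (57.1%) had a difference below 0 over both cell types, against 49.1% of all probe sets, and the median was -0.02 against 0.00. Differences ran from -2.38 for Pramel19 to 0.25 for Pramel5. The numbered pairs gave 3 members below 0 in 6 of 6 pairs (8.57%, against 7.01% of all probe sets) and 0 above 0 in 6 of 6 (against 5.65%). These were Pramel19, Pramel18 and Pramel34.

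Pramel34, of chromosome 5, was at 1.11, 1.14 and 1.10 on ESC low replicates 2, 3 and 4, at 0.95, 0.97 and 0.95 on ESC high, at 0.84, 1.72 and 0.96 on iPSC low and at 0.79, 0.82 and 0.82 on iPSC high. Low and high arrays did not overlap in either cell type, but no value reached 2.5 and the difference of -0.26 ± 0.12 did not pass (adjusted p = 0.328, limma). Arrays without overlap in both cell types, and in the same lower direction, were found for 3 of 35 members and for 1.83% of all probe sets. In the higher direction there were 0 members and 1.98% of all probe sets.

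In ESC, 5 members lay lower without overlap in the high fraction (Pramel11, Pramel19, Pramel18, Pramel34 and Pramel17), beside 6.36% of all probe sets. Another 5 lay higher (Oog3, Pramel25, Pramel26, Pramel5 and Prame), beside 6.71%. The largest of those higher differences were 0.37 ± 0.14 for Pramel5 and 0.36 ± 0.14 for Pramel26 (adjusted p = 0.477 and 0.454, limma). In iPSC 5 lay lower (Pramel19, Pramel4, Pramel18, Pramel34 and Pramel14), beside 9.57%, and 0 higher, beside 9.76%. Between cell types 0 members were without overlap, beside 2.75%. Pramel17, Pramel25 and Pramel26 are named here after their values were seen.

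**Figure D3:**
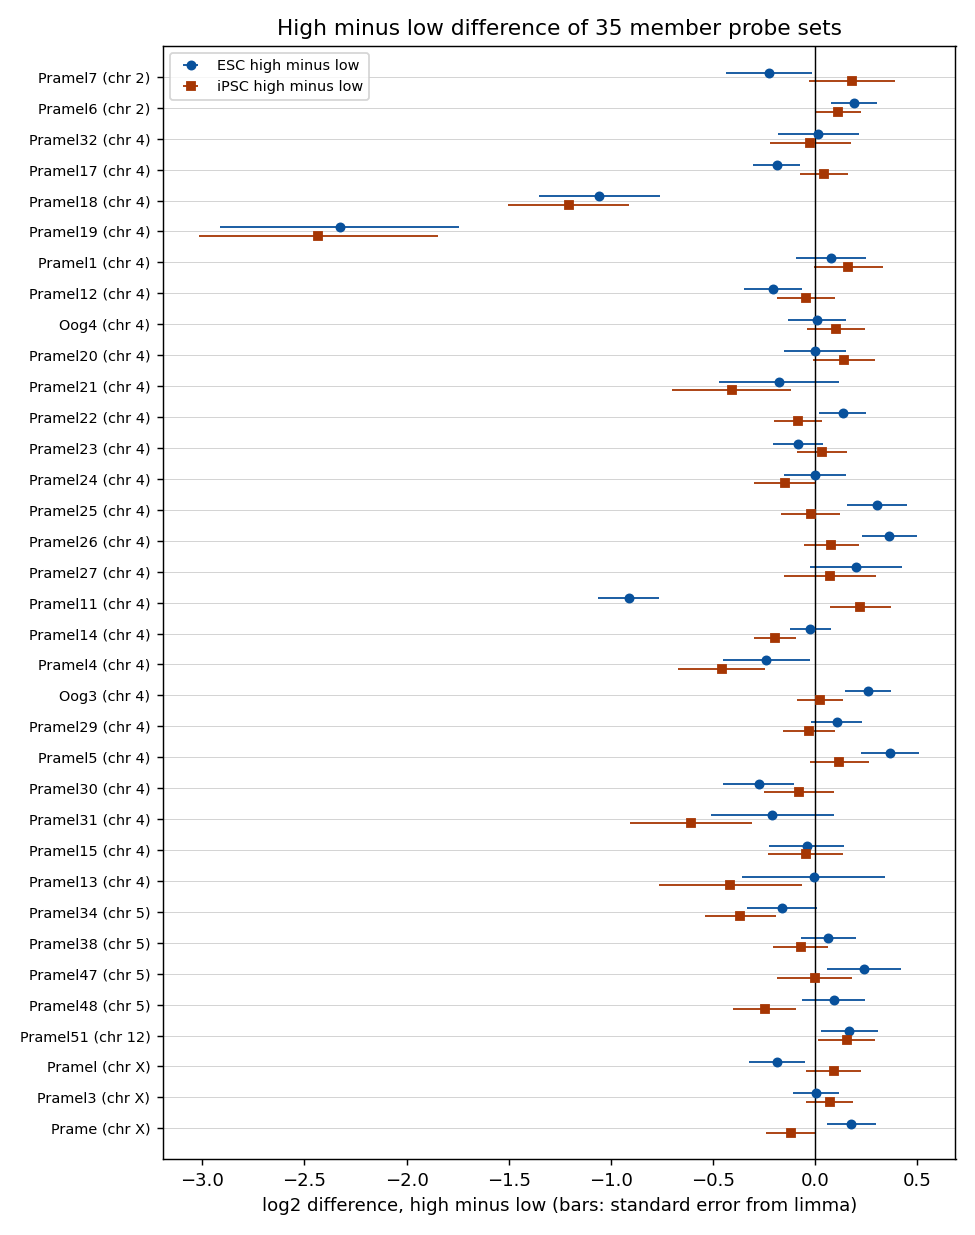
Log2 difference between the high and the low fraction (horizontal axis) for the 35 member probe sets in order along the chromosomes (vertical axis), in ESC (circles) and iPSC (squares), with standard errors from limma. Pramel19 and Pramel18 stand far to the left in both cell types, Pramel11 in ESC, and the other members lie between -0.61 and 0.37. Pramel11 was under 2.5 on every array, and its difference between cell types did not pass.

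Of the other members with larger differences, Pramel31 was at 2.07 on ESC low replicate 4 and 2.54 on iPSC low replicate 4, and between 1.10 and 1.76 on the other 10 arrays. Its difference of -0.41 ± 0.21 (adjusted p = 0.387, limma) thus came with 2 raised arrays of the same number. Pramel21 was likewise highest on iPSC low replicate 4, at 2.57, followed by ESC low replicate 4 at 2.20, and differed by -0.29 ± 0.21 (adjusted p = 0.555, limma). Those 2 arrays also had the highest Pramel18 values. Pramel20 ran from 2.19 to 2.76 and differed by 0.07 ± 0.11.

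**Figure D4:**
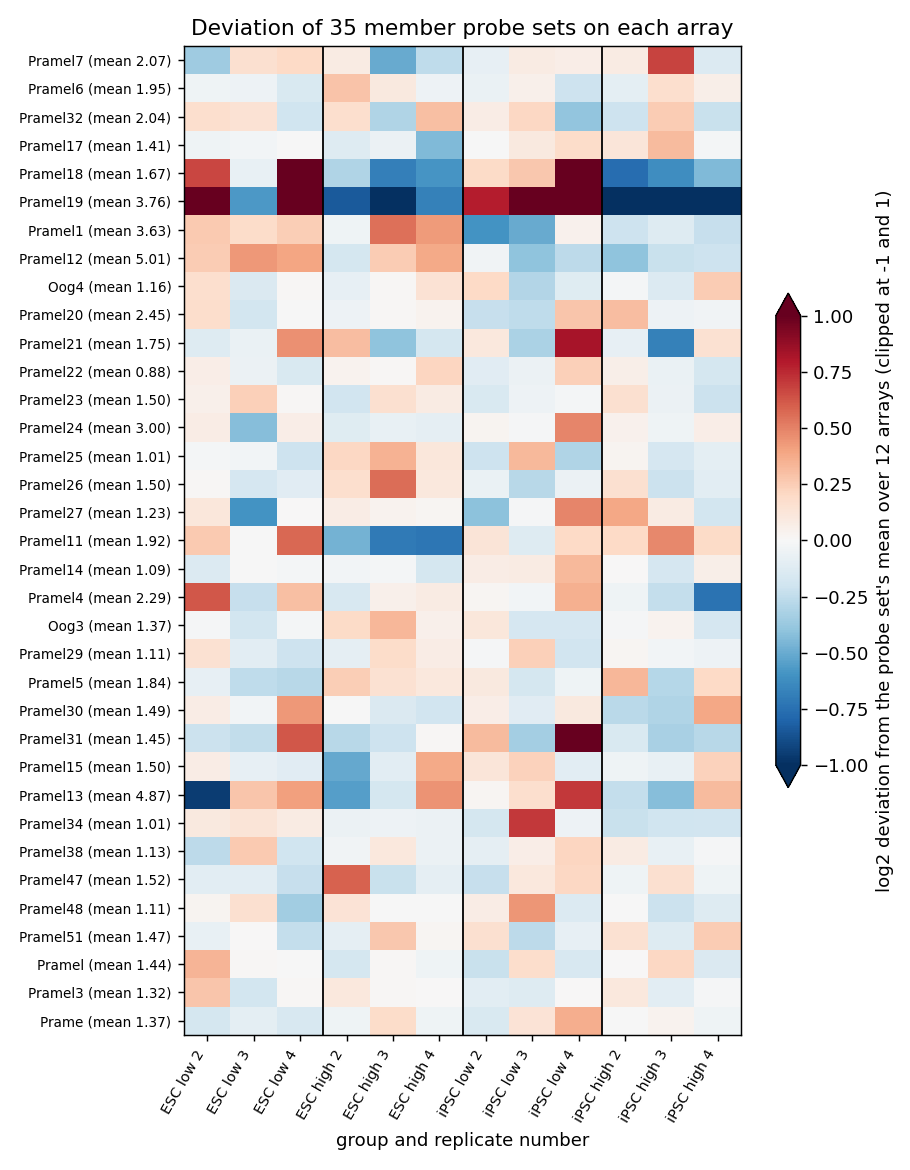
Deviation of each of the 35 member probe sets from its own mean over the 12 arrays (colour, log2 scale, clipped at -1 and 1), with arrays by group and replicate on the horizontal axis and members in chromosome order on the vertical axis, labelled with their mean level. The rows of Pramel18 and Pramel19 are red on low and blue on high arrays, except for ESC low replicate 3, where both are below their mean.

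Spread between arrays of a group was larger for the members than for the array at large. The pooled within-group SD had a median of 0.20 over the members and 0.16 over all probe sets, and it was largest for Pramel19 (0.89), Pramel13 (0.52), Pramel31 (0.44) and Pramel18 (0.44).

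Signal shared between copies was looked at through within-group deviations, which leave out the group means. Of 435 pairs among the 30 members with a promoter, 10 shared 200 or more of 250 upstream bases, and their deviations over the 12 arrays had a median correlation of 0.17 (range -0.25 to 0.78), against 0.02 for the other 425 pairs, whose range of -0.90 to 0.86 contains that of the close pairs. Pramel25 and Pramel29 (222 bases) were at 0.78 and Pramel14 and Pramel30 (244 bases) at 0.49, while Pramel4 and Pramel5 (220 bases) were at 0.10. Pramel11 and Pramel24 (217 bases) were at 0.565. The neighbours Pramel18 and Pramel19 were at 0.783, but Pramel24, which neighbours neither, was at 0.908 with Pramel18 and 0.812 with Pramel19. These correlations describe arrays that share their normalization, and upstream likeness is not likeness of the probed transcript. On a given array, members had equal values to 6 decimals in 2 cases.

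Motifs were searched on both strands of the 250 upstream bases, as letters only. None of the 30 member stretches held the STAT3 site TTCCNGGAA (0.913% of all promoters), the octamer ATGCAAAT (1.6%), the DUX site (0.0304%), the ZSCAN4 word TGCACAC (3.67%) or the E-box CACGTG (6.02%). A TATAAA box was in 7 of 30 (23.3%, against 12.4%) and a CCAAT box in 14 of 30 (46.7%, against 33.8%). Of the 5 called members, Pramel19 and Pramel1 held a CCAAT box, Pramel11 held none of the motifs, and Pramel18 and Pramel12 were not in the table.

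The partners of the family were measured well above the dim range. In the list of cullin ligase subunits and the UHRF1 axis, 1 of 14 genes rose over both cell types and 0 fell, with a median of 0.00. Of all probe sets, 1.6% were called higher and 0.905% lower in that comparison. The gene that rose was Eloc, elongin C, which links receptors of this kind to the cullin, by 0.42 ± 0.10 (adjusted p = 0.0479, limma). The scaffold Cul2 was at 0.02 ± 0.06, elongin B (Elob) at 0.11 ± 0.08, and Uhrf1, the maintenance methylation factor, at -0.10 ± 0.06 (adjusted p = 0.479, limma). Of 16 LIF and STAT3 pathway genes, 0 changed with the fraction by limma, with a median of -0.02 over both cell types and Stat3 at -0.05 ± 0.06. At an unadjusted p under 0.05 (limma) there was 1 gene over both cell types, beside 15.6% of all probe sets. Between cell types 1 was called higher in iPSC, the kinase Pim3, by 0.43 ± 0.07, beside 0.916% of all probe sets. At an unadjusted p under 0.05 (limma) there were 9 of the 16, with a median of 0.15 over the list, beside 14.7% of all probe sets. Of 15 naive pluripotency genes, 0 changed with the fraction by limma. Over both cell types 1 had an unadjusted p under 0.05, beside 15.6% of all probe sets. Between cell types Klf2 was called higher in iPSC by 0.39 ± 0.09 and Dppa3 lower, at -1.20 ± 0.20. Of all probe sets, 0.916% were called higher and 1.96% lower between cell types. Between cell types, 5 of the 15 naive pluripotency genes had an unadjusted p under 0.05 (limma), beside 14.7% of all probe sets.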

How the data were processed

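The authors deposited log2 expression values, 1 column for each of 12 arrays and 25206 probe sets, made with RMA, affy 1.36.1 and R 2.15.1, per the submitters' processing notes. RMA corrects background, quantile-normalizes the arrays and summarises probes on the log2 scale, which can shrink differences of dim probe sets. The chip definition is not given in the sources used here.

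Symbols came from the platform annotation (23185 probe sets with 1, 0 with several, 2021 with none). All probe sets were fitted in limma 3.58.1 (R 4.3.3) with 1 mean per group over the 12 arrays, and p-values were adjusted by Benjamini-Hochberg over 25206 probe sets, with a threshold of 0.05. The comparisons were high minus low over both cell types, in ESC and in iPSC, the difference of those effects, and iPSC minus ESC. Standard errors and 95% limits are from this fit. Promoters came from RefSeq and were aligned with Biopython 1.88. The number of arrays limits the precision.

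The members, the gene lists and the tests were chosen with earlier results of these data known. Named members are those past the threshold, a set with known roles, the 8 with the highest mean and the 8 with the largest difference with the fraction; of other lists, up to 4 genes with the lowest p per comparison. Deviations of low and high arrays of equal number correlated at 0.233 to 0.341 in ESC and 0.107 to 0.213 in iPSC, so the numbers were taken to pair the fractions of each cell type. The labels do not state this. Arrays of equal number from different cell types correlated at -0.0948 to 0.131, so the iPSC pairs do not stand apart from them. On simulated data with 25206 probe sets, log2 changes of 0.5 and 1 were recovered for 64.2% and 97% of changed probe sets over both cell types. The shares were 35.8% and 85.1% in ESC, and 29.9% and 85.1% in iPSC. The changed probe sets were drawn at random from the whole array. As most members were dim and their spread was larger, these shares need not hold for them. Alternatives were the replicate block, median centring, fits within a cell type, another variance model, array weights, filters on probe sets and leaving out each array.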

Additional observations from a re-analysis of the deposited data

How the results depend on the processing

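Over both cell types, 2 members were lower under the replicate block, median centring, trended variance, array weights, symbol-only testing and without any 1 array (2 to 2), and 1 when probe sets with a mean under 2.5 were left out, since Pramel18 was then not tested. Over all probe sets, 631 were called there in either direction in the main fit and 380 to 940 under these alternatives. In ESC, the 1 lower member became 2 with the replicate block, 0 with ESC arrays alone and 0 without dim probe sets, where Pramel11 was not tested, and 0 to 2 without 1 array. Calls over all probe sets in ESC, in either direction, went from 90 to 177 with the block and 39 with ESC arrays alone. They were 95 without dim probe sets and 19 to 111 without 1 array. In iPSC, 0 lower became 2 with the replicate block, 1 with iPSC arrays alone, and 0 to 1 without 1 array. Calls over all probe sets in iPSC, in either direction, went from 138 to 236 with the block and 100 with iPSC arrays alone. Without 1 array they were 1 to 208. For iPSC minus ESC, 2 lower became 1 with the replicate block and 1 to 2 without 1 array, and 0 higher became 0 to 1, Pramel11 (adjusted p = 0.049, limma, without ESC low replicate 4). Calls over all probe sets for iPSC minus ESC, in either direction, went from 724 to 463 with the block and 394 to 680 without 1 array. Apart from these cases the cause was not tested. Across the single members' values, no called difference changed sign under any alternative run, and the block changed no other call. With 3 arrays a group, values under 2.5 and no detection calls, small changes of dim copies could not be seen.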
